A study of Mus musculus with 9 samples.

Results

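The genes described here are 46 genes of the cell cycle and of DNA replication, followed in mouse hearts by RNA sequencing. They were chosen by name, 13 for DNA replication, 24 for mitosis and cytokinesis, 8 cyclins, kinases and transcription factors that regulate the cycle, and the proliferation marker Mki67. All 46 were found among the 16873 genes of each file by their Entrez gene IDs. The tissue came from 3 groups of 3 libraries: Sting-/- mice given doxorubicin (Sting-/- DOX), wild-type mice given doxorubicin (WT DOX) and wild-type mice given saline (WT saline). Doxorubicin is an anthracycline that traps topoisomerase II on DNA and can injure the heart, and STING relays the signal of cGAS, a sensor of cytosolic DNA, to interferon genes. The series text describes a chronic low-dose regimen and lists other knockout lines that were not analysed here. The labels tie the Sting-/- allele to no cell type. Saline-treated Sting-/- hearts were not analysed here, so any effect that the knockout has by itself cannot be told apart from its effect under the drug. Dose, time of sampling, age and sex are not in the labels, nor is whether libraries of 1 group stem from different animals, and the p-values therefore reflect variation among these libraries, possibly technical.

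A cell that commits to division makes D-type cyclins, which with their kinases free the E2F factors, and E2F in turn raises cyclin E and the genes that load the replicative helicase and supply nucleotides. Genes of mitosis peak later, in G2, under the MuvB complex, B-Myb and FoxM1. Adult heart muscle cells rarely divide, whereas endothelial cells, fibroblasts and leukocytes of the heart can.

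Values are FPKM, fragments scaled to transcript length and to the mapped fragments of the library, and were tested with limma as log2(FPKM + 1) over 12485 genes averaging 1 FPKM or more, with a threshold of 0.05 on the Benjamini-Hochberg adjusted p. Of the 46 genes, 45 passed that filter and Cdc6 did not. The mean lay under 1 FPKM in WT saline for 19 of them, in WT DOX for 0 and in Sting-/- DOX for 1. The 18 of these that were tested passed through the doxorubicin groups, where they were high, so counts against WT saline are also given for the 27 with at least 1 FPKM there. Sting1, the gene removed in the knockout, was at 0.06, 0 and 0 FPKM in Sting-/- DOX, 17.5, 17.96 and 17.8 FPKM in WT DOX and 5.1, 5.43 and 5.93 FPKM in WT saline, as the labels have it. Approximate depth, from the steps of low values, was 8400000 to 8600000 fragments in Sting-/- DOX, 13000000 to 13500000 in WT DOX and 11100000 to 11800000 in WT saline. The coefficient of variation between libraries of a group had a median over the 46 genes of 7.9% in Sting-/- DOX, 9.7% in WT DOX and 15.8% in WT saline.

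Over all genes tested the fold changes were not centred on 0: their log2 median was 0.13 for WT DOX against WT saline, 0.25 for Sting-/- DOX against WT DOX and 0.49 for Sting-/- DOX against WT saline. Median-ratio scaling of the libraries brought these to -0.05, 0.04 and 0.10, and quantile normalization to -0.09, 0.02 and 0.03. Fold changes below are on the deposited scale, and what the other scalings change is said beside them. In these bulk samples fewer cells of a type and less RNA per cell cannot be told apart.

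**Figure D1:**
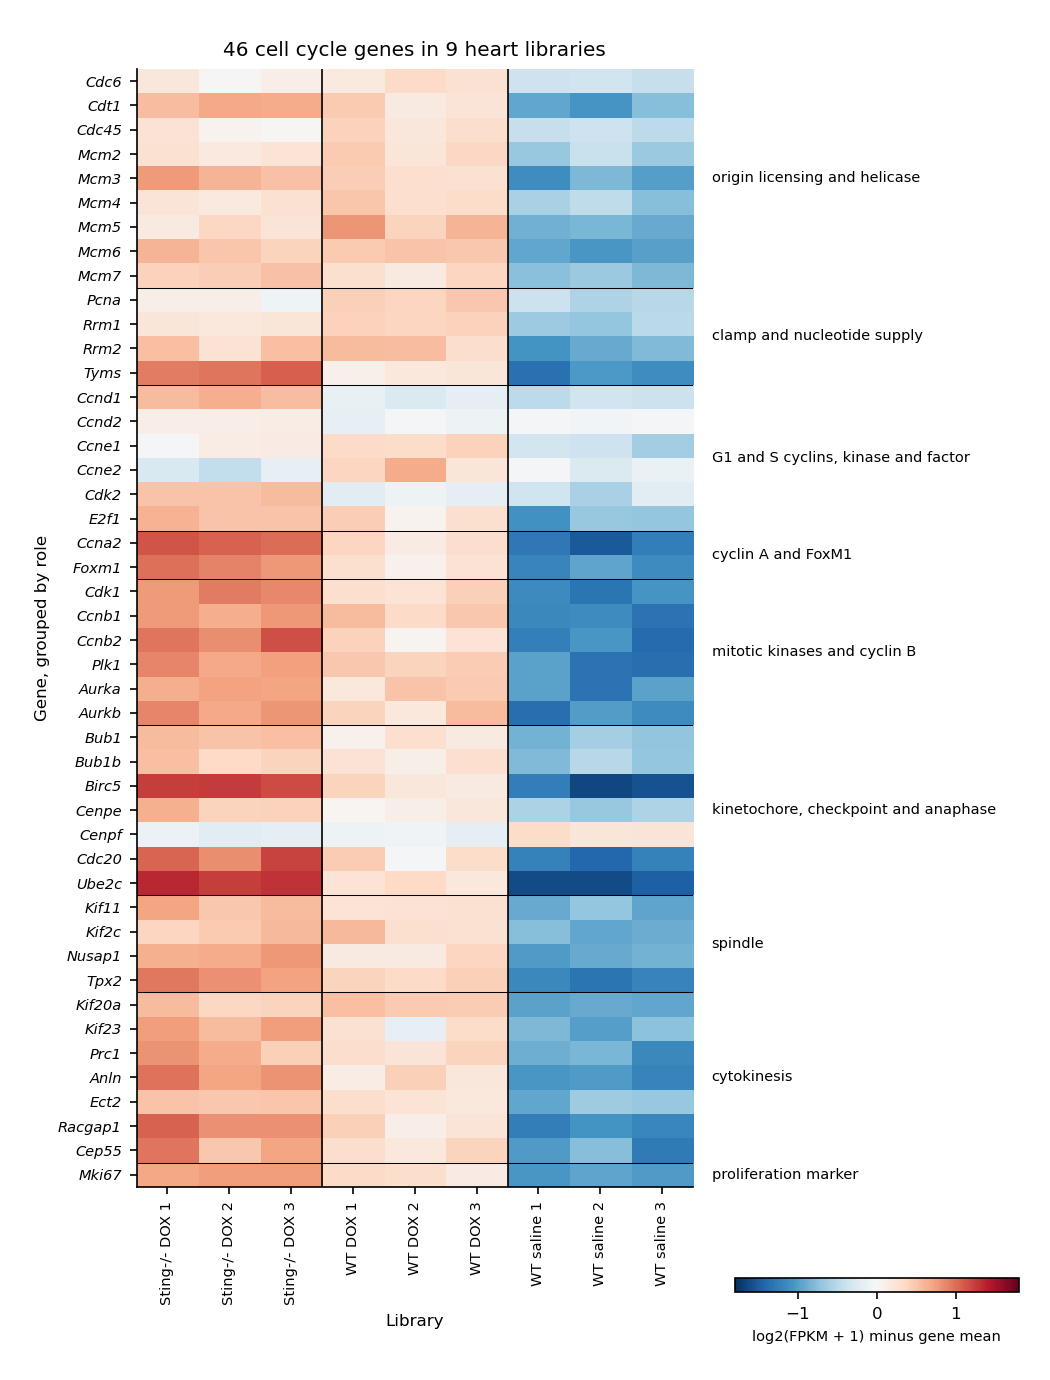
Each row is a gene, grouped by role, and each column a library; colour is log2(FPKM + 1) minus the gene's mean over the 9 libraries. WT saline has the lowest mean in every row but Cenpf, Ccnd2 and Ccne2, and 22 of 24 mitosis rows but 5 of 13 replication rows have their highest mean in Sting-/- DOX. Of all genes tested, 54.1% were called higher in Sting-/- DOX than in WT DOX and 63.0% higher than in WT saline.

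Of the 12 replication genes tested all rose with doxorubicin in WT hearts, and whether their summed level was lower or higher in Sting-/- DOX than in WT DOX depended on Pcna. Of the 24 mitosis genes 23 rose with doxorubicin, 8 of them among the 9 with at least 1 FPKM in WT saline. Of all genes tested 45.3% rose. The summed level of the mitosis genes was higher again in Sting-/- DOX. The summed level of the replication genes was 156, 152 and 147 FPKM in Sting-/- DOX, 168, 158 and 166 FPKM in WT DOX and 73.2, 71.7 and 71.7 FPKM in WT saline. That of the mitosis genes was 170.2, 155 and 162 FPKM in Sting-/- DOX, 104, 96.8 and 102 FPKM in WT DOX and 25.3, 25.01 and 23.97 FPKM in WT saline. No library of one group reached into the range of another group in either sum. The replication sum is dominated by Pcna, and without it the sum was 98.8, 95.1 and 96.7 FPKM in Sting-/- DOX, 96.5, 88.3 and 91.7 FPKM in WT DOX and 33.2, 35.9 and 34.4 FPKM in WT saline, so that Sting-/- DOX overlapped WT DOX and had the higher mean, 96.9 FPKM against 92.2 in WT DOX.

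Doxorubicin raised 43 of the 45 genes tested in WT DOX against WT saline, while Cenpf fell and Ccnd2 was not called. In the background, 45.3% of all genes tested were called higher and 21.5% lower in this comparison. Among the 27 genes with at least 1 FPKM in WT saline, 25 rose and 1 fell. Of the 46, 44 had every WT DOX library above every WT saline library and 1 had the reverse, where 47.8% and 23.8% of all genes tested did. The median log2 fold change was 1.02 over the 13 replication genes and 1.39 over the 24 mitosis genes, against 0.13 over all genes tested. Under median-ratio scaling 41 genes were higher and 2 lower, and under quantile normalization 40 and 2, while all genes tested turned from 67.8% of calls higher to 45.1% and 39.2%.

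In Sting-/- DOX against WT DOX, 31 of the 45 genes tested were called higher and 5 lower, against 54.1% of all genes tested called higher and 29.7% lower. Every Sting-/- DOX library was above every WT DOX library for 32 of the 46 and below for 6, where this held for 54.7% and 30.1% of all genes tested. Of the mitosis genes 20 of 24 were higher and 0 lower, with a median log2 fold change of 0.38, and of the 12 replication genes tested 4 were higher and 3 lower, with a median of -0.13 over all 13. The median of all genes tested, 0.25, lies between these values. Scaling decides how many are called: median-ratio scaling left 16 genes higher and 11 lower, of which mitosis genes made up 10 and 1 and replication genes 1 and 8. Quantile normalization left 13 higher and 12 lower, of which mitosis genes made up 7 and 2 and replication genes 1 and 8. Over all genes tested the share of calls that were higher was 64.6% on the deposited scale, 52.1% under median-ratio scaling and 51.4% under quantile normalization. Calls that were made in the same direction under all 4 scalings tried were Ube2c, Birc5, Cdc20, Ccnb2, Cdk1, Anln, Racgap1, Ccna2, Foxm1, Ccnd1, Cdk2, Tyms and Mki67, all higher, and Pcna, Mcm5, Ccne1 and Ccne2, all lower.

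In Sting-/- DOX against WT saline, 43 of 45 genes were higher and Cenpf was lower, with Ccne2 not called, against 63.0% of all genes tested called higher and 25.9% lower. Of the 27 genes with at least 1 FPKM in WT saline 25 were higher and 1 lower. Among these, replication genes made up 12 higher and 0 lower, and mitosis genes 8 higher and 1 lower. The ranges did not overlap for 44 of the 46 on the higher side and 1 on the lower, against 63.2% and 26.0% of all genes tested. The median log2 fold change was 1.12 over the replication genes and 1.76 over the mitosis genes, against 0.49 over all genes tested. Median-ratio scaling gave 41 higher and 3 lower and quantile normalization 40 and 3. This comparison shares its libraries with the others, so its calls are not separate evidence.

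**Figure D2:**
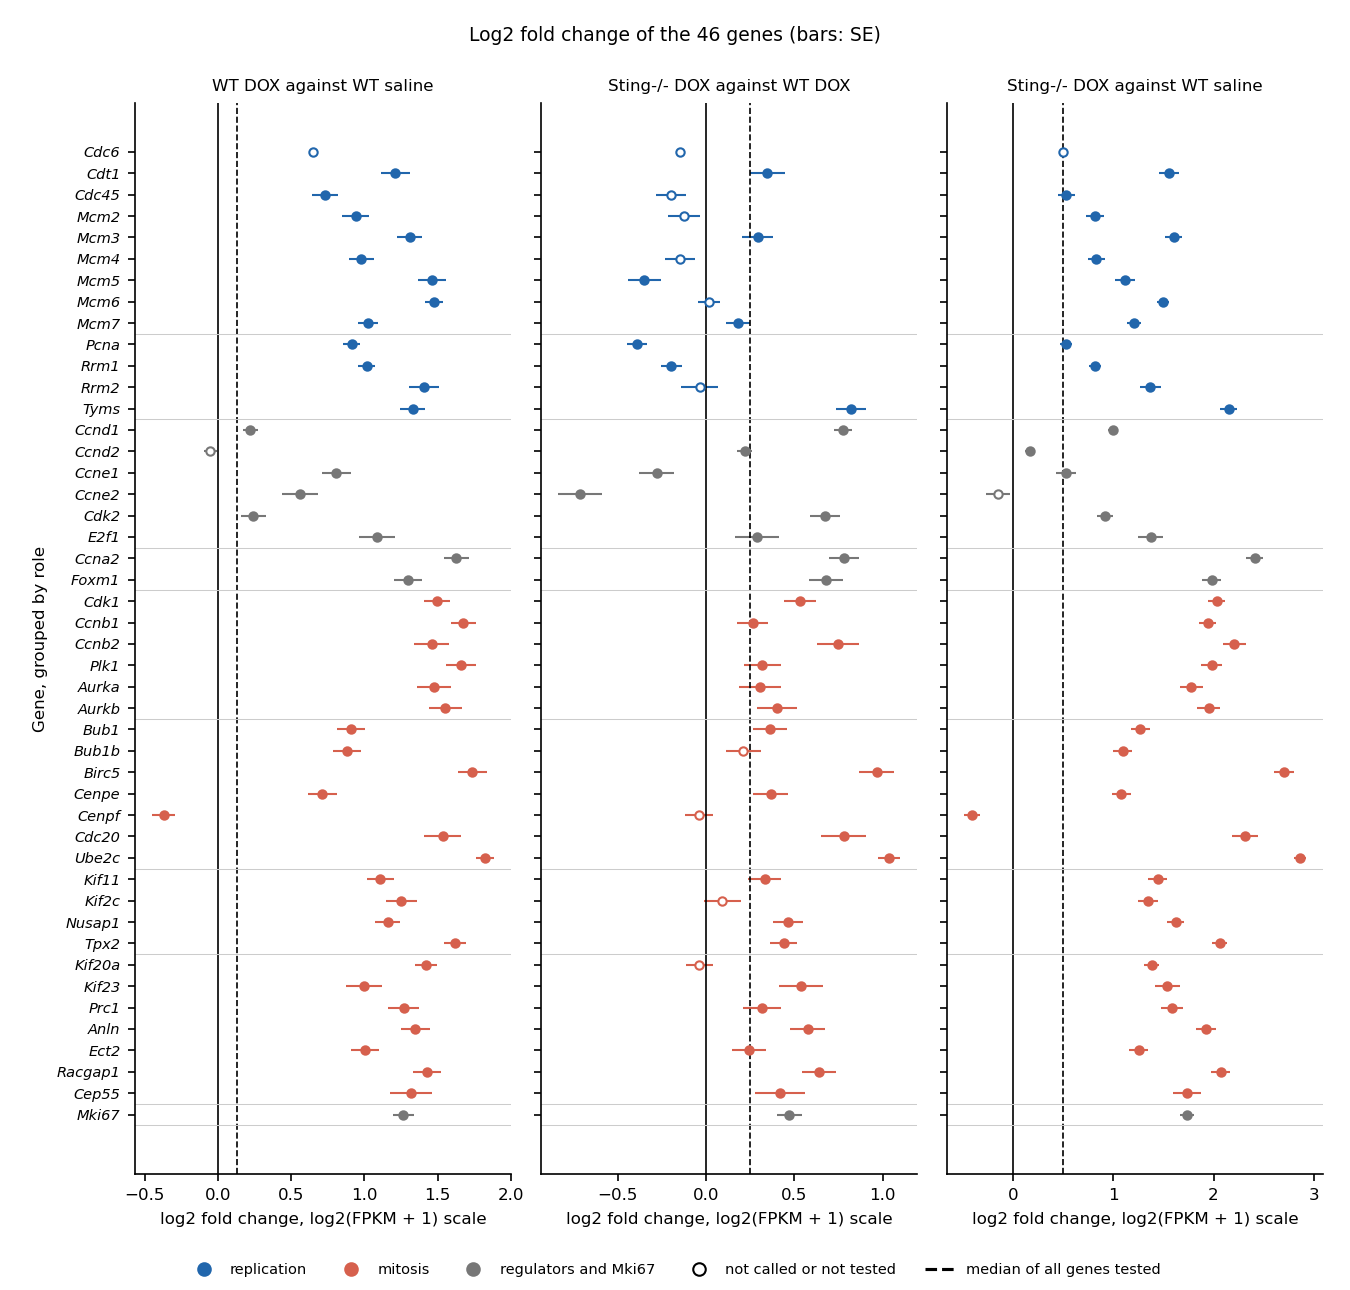
Points are log2 fold changes of the 46 genes on the log2(FPKM + 1) scale, with bars for the SE, in WT DOX against WT saline (left), Sting-/- DOX against WT DOX (middle) and Sting-/- DOX against WT saline (right); filled points passed the threshold and the dashed line is the median of all genes tested. In the middle panel mitosis genes lie at -0.04 to 1.04 and replication genes at -0.39 to 0.82; median-ratio scaling moves the dashed line from 0.25 to 0.04, and some of the smaller changes then lose their call or turn.

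The difference between mitosis and replication can be read within each library, where a scaling factor of the library cancels. The summed FPKM of the 24 mitosis genes divided by that of the replication genes without Pcna was 1.72, 1.63 and 1.67 in Sting-/- DOX, 1.08, 1.1 and 1.12 in WT DOX and 0.762, 0.697 and 0.697 in WT saline. With Pcna included the ratio was 1.09, 1.02 and 1.1 in Sting-/- DOX, 0.622, 0.613 and 0.616 in WT DOX and 0.345, 0.349 and 0.334 in WT saline. All 3 groups were apart on both ratios, with Sting-/- DOX the highest and WT saline the lowest. Ube2c and Birc5 weigh most in the mitosis sum, averaging 35.1 and 19.1 FPKM in Sting-/- DOX and 16.6 and 9.33 in WT DOX. With each gene weighted alike, mean log2(FPKM + 1) of mitosis minus replication averaged -0.556 in Sting-/- DOX, -0.979 in WT DOX and -1.137 in WT saline. On that scale a scaling factor cancels only in part. As the difference of the median log2 fold changes, mitosis exceeded replication by 0.36 in WT DOX against WT saline, by 0.51 in Sting-/- DOX against WT DOX and by 0.64 in Sting-/- DOX against WT saline. Since the genes were chosen with earlier results known, these differences are descriptions without a test. By group mean, 22 of the 24 mitosis genes had their highest level in Sting-/- DOX, 1 in WT DOX (Kif20a) and 1 in WT saline (Cenpf). Of the 13 replication genes, 8 were highest in WT DOX and 5 in Sting-/- DOX. Among all genes tested, 54.1% were called higher in Sting-/- DOX than in WT DOX and 63.0% higher than in WT saline. The share of all genes with their highest mean in Sting-/- DOX was not counted.

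**Figure D3:**
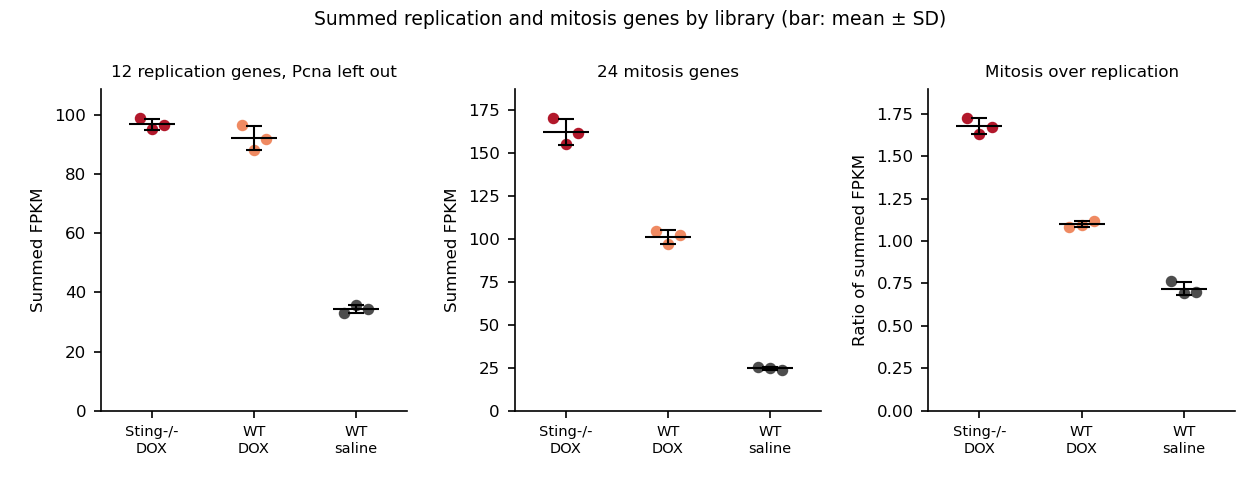
Points are libraries, with the mean and SD of each group as bars: the summed FPKM of 12 replication genes without Pcna (left), of 24 mitosis genes (middle) and their ratio (right). The replication sum overlaps between Sting-/- DOX and WT DOX, while the ratio is 1.63 to 1.72 in Sting-/- DOX, 1.08 to 1.12 in WT DOX and 0.697 to 0.762 in WT saline.

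Promoter letters, which the choice of genes did not use, differed between the replication and the mitosis genes. Promoters of mitosis genes are known for a cell cycle genes homology region (CHR), the site of MuvB complexes, together with CCAAT boxes bound by NF-Y, and promoters of replication genes for E2F sites. RefSeq windows of 300 bases (250 before to 50 after the gene's start, GRCm38.p6, the first start listed for a gene) were found for 37 of the 46 genes, and not for Aurkb, Ccna2, Ccnd1, Ccnd2, Ccne2, Foxm1, Kif20a, Mcm4 and Tpx2. Both strands were searched. The CHR was taken as the letters TTTGAA, with the variant spelled TTCGAA counted too, and the CCAAT box by its name. E2F was taken as TTCCCGC, and the other forms allowed were first TTGGCGC, then also TTCGCGC, and last of these TTGCCGC. A CHR match was present in 17 of 21 mitosis windows (81.0%), in 3 of 12 replication windows (25%) and in 14.0% of the windows of 9990 tested genes. An E2F match was present in 3 of 21 mitosis windows (14.3%), in 8 of 12 replication windows (66.7%) and in 16.8% of those of tested genes. CCAAT was present in 76.2% of the mitosis windows, in 75% of the replication windows and in 38.8% of those of tested genes. Over all 27025 genes with a window the shares were 19.4% for the CHR, 9.69% for E2F and 37.9% for CCAAT. Of the 22 CHR matches in mitosis windows, 18 began no more than 100 bases before the start or after it. A match is a description of the letters, not a bound site.

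Windows of the 4 replication genes and the 4 mitosis genes of highest mean FPKM are printed to show these letters in place, 5′ to 3′ on the gene's strand, with matches of any of the 3 families in capitals. Positions are in GRCm38.p6, whereas the submitters' processing notes name GRCm39 for the expression values. The replication genes are Pcna (chr2:132253131-132253430, minus strand), Mcm6 (chr1:128359656-128359955, minus strand), Mcm7 (chr5:138171834-138172133, minus strand) and Rrm1 (chr7:102441445-102441744, plus strand).
Pcna: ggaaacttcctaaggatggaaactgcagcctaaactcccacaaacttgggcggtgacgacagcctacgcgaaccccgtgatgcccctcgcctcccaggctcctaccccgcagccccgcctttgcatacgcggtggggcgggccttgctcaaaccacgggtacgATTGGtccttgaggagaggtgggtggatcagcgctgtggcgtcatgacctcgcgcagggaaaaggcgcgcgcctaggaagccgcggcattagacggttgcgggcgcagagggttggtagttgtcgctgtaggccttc
Mcm6: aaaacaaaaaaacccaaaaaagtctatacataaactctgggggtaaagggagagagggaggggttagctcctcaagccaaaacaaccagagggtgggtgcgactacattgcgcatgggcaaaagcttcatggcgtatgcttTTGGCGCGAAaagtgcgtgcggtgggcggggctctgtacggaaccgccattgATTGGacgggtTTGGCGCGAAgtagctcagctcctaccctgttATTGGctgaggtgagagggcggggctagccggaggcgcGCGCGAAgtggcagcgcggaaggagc
Mcm7: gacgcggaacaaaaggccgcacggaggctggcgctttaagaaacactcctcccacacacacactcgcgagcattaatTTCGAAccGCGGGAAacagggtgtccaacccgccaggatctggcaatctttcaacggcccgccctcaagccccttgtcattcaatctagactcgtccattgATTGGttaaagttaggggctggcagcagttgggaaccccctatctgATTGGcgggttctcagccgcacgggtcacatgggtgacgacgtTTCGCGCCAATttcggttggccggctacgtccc
Rrm1: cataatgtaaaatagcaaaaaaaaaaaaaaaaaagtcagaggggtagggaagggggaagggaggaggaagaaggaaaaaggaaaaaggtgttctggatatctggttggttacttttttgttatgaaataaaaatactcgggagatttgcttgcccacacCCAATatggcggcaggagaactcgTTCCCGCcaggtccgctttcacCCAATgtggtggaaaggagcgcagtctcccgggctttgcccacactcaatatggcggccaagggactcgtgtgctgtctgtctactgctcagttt
The mitosis genes are Ube2c (chr2:164769679-164769978, plus strand), Birc5 (chr11:117848987-117849286, plus strand), Prc1 (chr7:80294201-80294500, plus strand) and Ccnb2 (chr9:70421505-70421804, minus strand).
Ube2c: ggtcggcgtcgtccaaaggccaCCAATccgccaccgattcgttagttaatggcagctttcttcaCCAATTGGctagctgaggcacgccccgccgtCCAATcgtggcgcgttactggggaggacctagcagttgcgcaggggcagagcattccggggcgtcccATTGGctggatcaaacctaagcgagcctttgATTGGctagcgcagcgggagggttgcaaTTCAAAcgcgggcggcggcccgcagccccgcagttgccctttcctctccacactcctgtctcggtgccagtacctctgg
Birc5: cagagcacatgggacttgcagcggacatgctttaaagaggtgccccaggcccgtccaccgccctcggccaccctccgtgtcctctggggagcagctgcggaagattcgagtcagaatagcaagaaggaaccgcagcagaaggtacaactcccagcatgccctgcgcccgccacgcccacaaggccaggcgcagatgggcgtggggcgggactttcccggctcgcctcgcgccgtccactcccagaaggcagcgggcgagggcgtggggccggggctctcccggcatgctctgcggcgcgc
Prc1: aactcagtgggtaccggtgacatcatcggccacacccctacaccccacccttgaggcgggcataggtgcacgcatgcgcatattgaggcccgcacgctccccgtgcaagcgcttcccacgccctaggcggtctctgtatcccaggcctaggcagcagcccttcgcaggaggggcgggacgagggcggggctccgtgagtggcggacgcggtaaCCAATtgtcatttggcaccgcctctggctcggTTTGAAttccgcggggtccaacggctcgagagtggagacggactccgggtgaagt
Ccnb2: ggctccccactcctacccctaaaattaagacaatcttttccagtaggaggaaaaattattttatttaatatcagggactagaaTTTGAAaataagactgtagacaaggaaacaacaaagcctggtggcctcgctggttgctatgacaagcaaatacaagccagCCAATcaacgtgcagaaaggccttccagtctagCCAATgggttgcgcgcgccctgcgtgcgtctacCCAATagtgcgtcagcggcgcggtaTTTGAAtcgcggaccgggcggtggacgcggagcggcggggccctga
Mcm6, Mcm7 and Rrm1 hold E2F-type letters, whereas the Pcna window holds only a CCAAT box. Ube2c, Prc1 and Ccnb2 each hold a CHR match within 100 bases of the start with 1 or more CCAAT boxes before it. Mcm7 holds a CHR match further out, and the Birc5 window, from the only start listed, holds no match of any of the 3 families. For 24 of the 37 windows the bases just after the start were found in a transcript of the gene. For Birc5, Mcm6 and Ccnb2 they were not, so positions relative to the start are less sure there. Bases shared by matches of 2 families occurred in 177 of the 27025 windows and in 3 of the 37 windows of the genes described, Mcm7 among them.

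**Figure D4:**
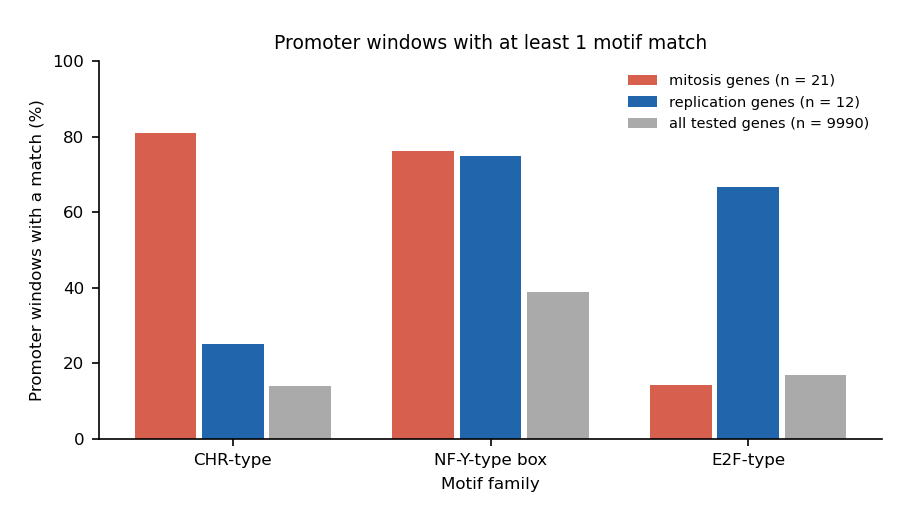
Bars give the percentage of promoter windows with at least 1 match of each motif family, in 21 mitosis genes, 12 replication genes and 9990 tested genes. CHR-type letters were found in 81.0% of mitosis windows and 25% of replication windows, and E2F-type letters in 14.3% of mitosis windows and 66.7% of replication windows; the NF-Y-type box is CCAAT.

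Origin licensing was the replication step with the most genes. Cdc6 and Cdt1 load the helicase ring of Mcm2 to Mcm7 onto origins, and Cdc45 joins the ring when it fires. Mcm6 had 16.8, 15.5 and 14.3 FPKM in Sting-/- DOX, 15.1, 15.6 and 15.2 FPKM in WT DOX and 5.08, 4.6 and 4.88 FPKM in WT saline. Mcm3 had 13.4, 11.96 and 11.2 FPKM in Sting-/- DOX, 10.5, 9.52 and 9.25 FPKM in WT DOX and 2.93, 3.85 and 3.28 FPKM in WT saline. Mcm7 had 13.9, 14.2 and 15.1 FPKM in Sting-/- DOX, 12.7, 11.5 and 13.6 FPKM in WT DOX and 5.64, 6.03 and 5.38 FPKM in WT saline. In all 3, both doxorubicin groups lay far above WT saline, Sting-/- DOX overlapped WT DOX for Mcm6, and it lay just above WT DOX for Mcm3 and Mcm7. Mcm2 measured 6.86, 6.34 and 6.68 FPKM in Sting-/- DOX, 8, 6.56 and 7.45 FPKM in WT DOX and 3.05, 3.93 and 3.08 FPKM in WT saline. Mcm4 measured 6.17, 5.91 and 6.41 FPKM in Sting-/- DOX, 7.65, 6.52 and 6.69 FPKM in WT DOX and 3.09, 3.44 and 2.59 FPKM in WT saline. Mcm5 measured 5.18, 6.16 and 5.51 FPKM in Sting-/- DOX, 8.58, 6.31 and 7.49 FPKM in WT DOX and 2.04, 2.14 and 1.96 FPKM in WT saline. For these the order in the doxorubicin groups was the other way, with means lower in Sting-/- DOX, overlapping ranges for Mcm2, and ranges that just missed each other for Mcm4 and Mcm5.

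The loaders and Cdc45 were expressed at lower levels. Cdt1 was at 5.29, 5.87 and 5.81 FPKM in Sting-/- DOX, 4.91, 3.79 and 4.04 FPKM in WT DOX and 1.23, 1.05 and 1.52 FPKM in WT saline. Cdc45 was at 3.47, 2.89 and 2.77 FPKM in Sting-/- DOX, 3.98, 3.28 and 3.64 FPKM in WT DOX and 1.81, 1.87 and 1.69 FPKM in WT saline. Cdc6 was at 0.93, 0.69 and 0.81 FPKM in Sting-/- DOX, 0.89, 1.12 and 1.01 FPKM in WT DOX and 0.29, 0.3 and 0.25 FPKM in WT saline. Cdt1 was highest in Sting-/- DOX without overlap, and Cdc45 and Cdc6 overlapped between the doxorubicin groups with the higher mean in WT DOX.

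In WT DOX against WT saline, Mcm6 rose by a log2 fold change of 1.48 ± 0.06 (SE; limma adjusted p = 1.19e-09), a ratio of means of 3.15. The other 7 genes of this step that were tested rose by 0.73 (Cdc45, limma adjusted p = 1.43e-05) to 1.47 (Mcm5, limma adjusted p = 6.64e-08), and none of the 8 lost its call under another scaling. Over all genes tested 45.3% were called higher in this comparison. Relative to WT DOX, Cdt1 in Sting-/- DOX was higher by 0.35 ± 0.10 (limma adjusted p = 0.006), Mcm3 by 0.29 ± 0.09 (limma adjusted p = 0.00795) and Mcm7 by 0.18 ± 0.07 (limma adjusted p = 0.0246). Under median-ratio scaling and quantile normalization these 3 lost the call, Mcm7 with values of -0.05 and -0.06, and Mcm7 also lost it without WT DOX replicate 2 (0.12, limma adjusted p = 0.112) or Sting-/- DOX replicate 3 (0.15, limma adjusted p = 0.0848). Mcm5 was lower, at -0.35 ± 0.10 in log2 units (limma adjusted p = 0.00484) and was called lower under every scaling. Cdc45 (-0.20 ± 0.09, limma adjusted p = 0.0528), Mcm2 (-0.13), Mcm4 (-0.15) and Mcm6 (0.02) were not called, and under median-ratio scaling all 4 were called lower, at -0.38, -0.34, -0.36 and -0.21 in that order. Cdc45 was also called lower with no variance trend in the fit (-0.20, limma adjusted p = 0.0347), and without WT DOX replicate 2 (-0.25, limma adjusted p = 0.0289) or Sting-/- DOX replicate 1 (-0.27, limma adjusted p = 0.0138).

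Pcna is the sliding clamp of the replication fork and also serves in DNA repair, Rrm1 and Rrm2 are the large and small subunits of ribonucleotide reductase, and Tyms makes thymidylate. Pcna had the highest level of the 46 genes, with 56.96, 57.05 and 50.1 FPKM in Sting-/- DOX, 71.3, 69.8 and 74.5 FPKM in WT DOX and 40.03, 35.8 and 37.3 FPKM in WT saline. Its ranges did not overlap, and WT DOX was the highest group. Rrm1 followed the same order, with 10.6, 10.4 and 10.7 FPKM in Sting-/- DOX, 12.4, 12.01 and 12.3 FPKM in WT DOX and 5.36, 5.17 and 6.13 FPKM in WT saline. Rrm2, the limiting subunit in dividing cells, gave 6.6, 5.28 and 6.59 FPKM in Sting-/- DOX, 6.81, 6.67 and 5.52 FPKM in WT DOX and 1.49, 1.78 and 2.03 FPKM in WT saline, overlapping between the doxorubicin groups. Tyms departed from the other 3, with 9.61, 9.91 and 10.8 FPKM in Sting-/- DOX, 4.96, 5.4 and 5.53 FPKM in WT DOX and 1.21, 1.74 and 1.58 FPKM in WT saline, so that every Sting-/- DOX library exceeded every WT DOX library.

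Doxorubicin raised all 4 in WT hearts, by log2 fold changes of 0.91 (Pcna), 1.02 (Rrm1), 1.33 (Tyms) and 1.41 (Rrm2), with a highest limma adjusted p of 2.08e-07. It raised 45.3% of all genes tested. Relative to WT DOX, Pcna in Sting-/- DOX was lower, at -0.39 ± 0.06 in log2 units (limma adjusted p = 5.4e-05) and so was Rrm1, at -0.20 ± 0.06 (limma adjusted p = 0.0101), where the call on Rrm1 was lost when the libraries were rescaled to 1 common sum (-0.14, limma adjusted p = 0.059). Tyms was higher by 0.82 ± 0.09 (limma adjusted p = 2.11e-06), a ratio of means of 1.91. Rrm2 was not called (-0.04 ± 0.10, limma adjusted p = 0.755), was called lower under median-ratio scaling (-0.24) and quantile normalization (-0.32), and was above 0 without WT DOX replicate 1 (0.01) or Sting-/- DOX replicate 2 (0.06). Against WT saline Pcna was higher in Sting-/- DOX by 0.52 ± 0.06 (limma adjusted p = 2.98e-06), a call lost under median-ratio scaling (0.08, limma adjusted p = 0.253).

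**Figure D5:**
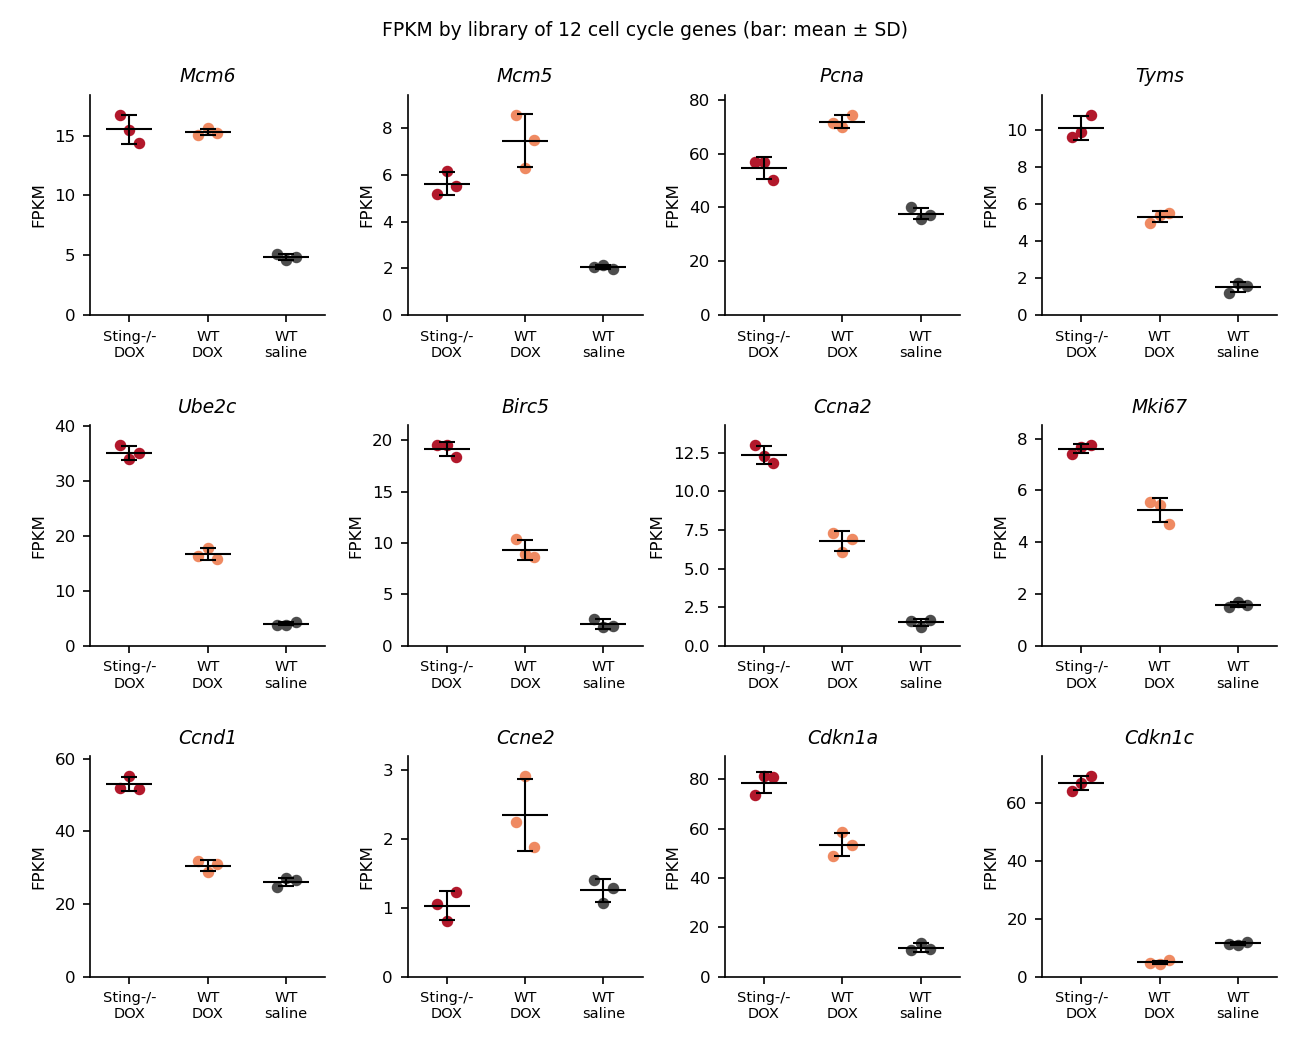
Points are the 3 libraries of each group with mean and SD, in FPKM, for 4 replication genes (top row), 4 genes of the mitotic program and proliferation (middle row) and 2 cyclins and 2 inhibitors (bottom row). Ube2c, Birc5, Ccna2 and Mki67 are highest in Sting-/- DOX and lowest in WT saline, Pcna, Mcm5 and Ccne2 are highest in WT DOX, and Cdkn1c is at 64.2 to 69.2 FPKM in Sting-/- DOX.

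The G1 and S phase regulators did not move as a block. Ccnd1 and Ccnd2 encode D-type cyclins that bind Cdk4 and Cdk6, Ccne1 and Ccne2 the E cyclins that bind Cdk2, and E2f1 an activator of S phase genes. Ccnd1 had 52.1, 55.3 and 51.8 FPKM in Sting-/- DOX, 31.8, 28.9 and 31.1 FPKM in WT DOX and 24.8, 27.1 and 26.5 FPKM in WT saline. Ccnd2 had 24.1, 24.1 and 24.2 FPKM in Sting-/- DOX, 19.7, 21.6 and 20.6 FPKM in WT DOX and 21.5, 21.2 and 21.7 FPKM in WT saline. Cdk2 had 14.1, 14.1 and 14.7 FPKM in Sting-/- DOX, 8.28, 8.97 and 8.48 FPKM in WT DOX and 7.24, 6.03 and 8.16 FPKM in WT saline. Ccnd1 and Cdk2 stood far higher in Sting-/- DOX than in the 2 WT groups, which were close to each other, and Ccnd2 differed little. Ccne1 gave 1.36, 1.65 and 1.68 FPKM in Sting-/- DOX, 2.06, 2.03 and 2.23 FPKM in WT DOX and 0.92, 0.86 and 0.56 FPKM in WT saline. Ccne2 gave 1.05, 0.81 and 1.23 FPKM in Sting-/- DOX, 2.24, 2.91 and 1.88 FPKM in WT DOX and 1.4, 1.07 and 1.28 FPKM in WT saline. E2f1 gave 4.4, 4.01 and 3.99 FPKM in Sting-/- DOX, 3.76, 2.65 and 3.27 FPKM in WT DOX and 0.65, 1.18 and 1.16 FPKM in WT saline. The E cyclins were highest in WT DOX without overlap, and the Ccne2 range of Sting-/- DOX overlapped that of WT saline, whereas E2f1 was highest in Sting-/- DOX.

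In WT DOX against WT saline, E2f1 rose by 1.09 ± 0.12, Ccne1 by 0.81 ± 0.10 and Ccne2 by 0.56 ± 0.12 in log2 units (limma adjusted p = 8.73e-06, 1.84e-05 and 0.00162), and the call on Ccne2 was lost under quantile normalization (0.27, limma adjusted p = 0.0536). E2f1 and Ccne1 averaged 0.997 and 0.78 FPKM in WT saline and passed the filter through the doxorubicin groups, which favoured a rise. Ccnd1 (0.22 ± 0.05, limma adjusted p = 0.00244) and Cdk2 (0.24 ± 0.08, limma adjusted p = 0.0224) rose little and lost the call under median-ratio scaling (0.01 and 0.05) and quantile normalization. The Cdk2 call was also lost without WT DOX replicate 2 (0.21, limma adjusted p = 0.073) or WT saline replicate 2 (0.14, limma adjusted p = 0.0873). Ccnd2 was not called (-0.05 ± 0.04, limma adjusted p = 0.304) and was called lower under median-ratio scaling (-0.26) and quantile normalization (-0.23).

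Set against WT DOX, Ccnd1 in Sting-/- DOX was higher by 0.78 ± 0.05 (limma adjusted p = 2.75e-08) and Cdk2 by 0.67 ± 0.08 (limma adjusted p = 9.33e-06). Ccne2 was lower, at -0.71 ± 0.12 (limma adjusted p = 0.000173), a ratio of means of 0.44, and so was Ccne1, at -0.28 ± 0.10 (limma adjusted p = 0.0212). The calls on these 4 held under every scaling, but Ccne1 lost its call with a pseudocount of 0.1 FPKM (limma adjusted p = 0.0554) and without WT DOX replicate 3 (-0.25, limma adjusted p = 0.0704) or Sting-/- DOX replicate 1 (-0.22, limma adjusted p = 0.0786). E2f1 was higher by 0.29 ± 0.12 (limma adjusted p = 0.0457) but lost the call without any 1 of Sting-/- DOX replicates 1, 2 and 3 or WT DOX replicates 2 and 3 (0.19 to 0.31, limma adjusted p = 0.0685 to 0.189), with a pseudocount of 0.1 FPKM (limma adjusted p = 0.114) and under median-ratio scaling (0.09), and was at -0.01 under quantile normalization. Ccnd2 was higher by 0.22 ± 0.04 (limma adjusted p = 0.000621), and lost the call under median-ratio scaling (-0.02) and quantile normalization (0.04). Against WT saline, Sting-/- DOX was higher in Ccnd1 by a ratio of means of 2.03 and in Ccnd2 by a log2 fold change of 0.16 ± 0.04, where Ccnd2 turned to -0.27 under median-ratio scaling and -0.19 under quantile normalization. Ccne1 was higher by 0.53 ± 0.10 against WT saline and at -0.11 under quantile normalization, and Ccne2, not called on the deposited scale (-0.15), was called lower under both (-0.39 and -0.74).

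Ccna2 is the cyclin of S phase and G2, and Foxm1 a transcription factor of G2 genes. Ccna2 had 12.99, 12.3 and 11.8 FPKM in Sting-/- DOX, 7.32, 6.09 and 6.95 FPKM in WT DOX and 1.63, 1.24 and 1.69 FPKM in WT saline. Foxm1 had 5.58, 5.19 and 4.68 FPKM in Sting-/- DOX, 3.04, 2.51 and 2.97 FPKM in WT DOX and 0.45, 0.72 and 0.51 FPKM in WT saline. The 3 groups were apart for both genes, with Sting-/- DOX the highest. Ccna2 rose by 1.63 ± 0.09 in WT DOX against WT saline (limma adjusted p = 9.57e-09) and was higher by 0.78 ± 0.09 in Sting-/- DOX against WT DOX (limma adjusted p = 3.19e-06). Foxm1 rose by 1.30 ± 0.10 (limma adjusted p = 1.83e-07) and was higher by 0.68 ± 0.10 (limma adjusted p = 2.86e-05), and both genes kept both calls under every scaling. Foxm1 averaged 0.56 FPKM in WT saline and passed the filter through the doxorubicin groups, which favoured a rise.

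Entry into mitosis is driven by Cdk1 with its cyclins Ccnb1 and Ccnb2 and by the kinases Plk1, Aurka and Aurkb. Cdk1 had 4.92, 5.63 and 5.33 FPKM in Sting-/- DOX, 3.24, 3.14 and 3.69 FPKM in WT DOX and 0.57, 0.4 and 0.66 FPKM in WT saline. Ccnb1 had 5.31, 4.8 and 5.38 FPKM in Sting-/- DOX, 4.51, 3.71 and 4.19 FPKM in WT DOX and 0.66, 0.69 and 0.47 FPKM in WT saline. Both were under 1 FPKM in every WT saline library. Plk1 had 5.84, 4.92 and 5.18 FPKM in Sting-/- DOX, 4.17, 3.89 and 4.1 FPKM in WT DOX and 0.9, 0.48 and 0.45 FPKM in WT saline. Aurkb had 5.63, 4.79 and 5.25 FPKM in Sting-/- DOX, 3.76, 3.12 and 4.33 FPKM in WT DOX and 0.41, 0.79 and 0.64 FPKM in WT saline. Plk1 and Aurkb were likewise under 1 FPKM in WT saline, and for all 4 Sting-/- DOX exceeded WT DOX without overlap. Ccnb2 and Aurka averaged 9.48 ± 1.17 and 4.42 ± 0.14 FPKM in Sting-/- DOX, 5.25 ± 0.8 and 3.41 ± 0.533 in WT DOX, and 1.27 ± 0.276 and 0.59 ± 0.225 in WT saline (SD, n = 3 each).

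All 6 rose in WT DOX against WT saline, by log2 fold changes of 1.46 (Ccnb2) to 1.68 (Ccnb1, limma adjusted p = 8.57e-09), under every scaling. Over all genes tested 45.3% were called higher in this comparison. Of the 6, only Ccnb2 averaged at least 1 FPKM in WT saline. The others passed the filter through the doxorubicin groups, which favoured a rise. All 6 were called higher in Sting-/- DOX against WT DOX, from 0.26 ± 0.09 (Ccnb1, limma adjusted p = 0.014) to 0.75 ± 0.12 (Ccnb2, limma adjusted p = 7.66e-05), with Cdk1 at 0.53 ± 0.09 (limma adjusted p = 0.000132). There, 54.1% of all genes tested were called higher, and the median of all genes tested was 0.25, close to the value of Ccnb1. Cdk1 and Ccnb2 kept the call under every scaling. With a pseudocount of 0.1 FPKM the calls on Ccnb1, Plk1 and Aurka were lost (limma adjusted p = 0.0546, 0.0917 and 0.142). Ccnb1, Plk1, Aurka and Aurkb lost theirs under median-ratio scaling, at 0.06, 0.12, 0.11 and 0.20, and under quantile normalization, where Ccnb1 was at -0.02. With 1 library left out, Aurka lost its call without WT DOX replicate 1 (0.20, limma adjusted p = 0.131) or Sting-/- DOX replicates 2 or 3 (limma adjusted p = 0.0682 and 0.066), Ccnb1 without WT DOX replicate 2 (0.20, limma adjusted p = 0.0643) and Plk1 without Sting-/- DOX replicate 1 (0.26, limma adjusted p = 0.0594).

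The 7 genes of the kinetochore, the spindle checkpoint and anaphase held the only gene of the 45 tested that fell in WT DOX against WT saline. Ube2c, the ubiquitin-conjugating enzyme of the anaphase-promoting complex, had 36.4, 33.9 and 34.99 FPKM in Sting-/- DOX, 16.3, 17.8 and 15.7 FPKM in WT DOX and 3.82, 3.82 and 4.27 FPKM in WT saline. Birc5, survivin of the chromosomal passenger complex, had 19.5, 19.5 and 18.4 FPKM in Sting-/- DOX, 10.4, 8.89 and 8.67 FPKM in WT DOX and 2.64, 1.78 and 1.91 FPKM in WT saline. Bub1, a checkpoint kinase, had 2.15, 2.02 and 2.09 FPKM in Sting-/- DOX, 1.24, 1.62 and 1.36 FPKM in WT DOX and 0.17, 0.39 and 0.29 FPKM in WT saline. In each the groups were apart, with Sting-/- DOX the highest and WT saline the lowest. Cenpf, a large kinetochore protein, had 1.35, 1.21 and 1.25 FPKM in Sting-/- DOX, 1.37, 1.4 and 1.23 FPKM in WT DOX and 2.16, 1.93 and 1.96 FPKM in WT saline. It was the reverse, with both doxorubicin groups under every WT saline library and overlapping each other.

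Ube2c rose by 1.82 ± 0.06 (limma adjusted p = 1.89e-10) in WT DOX against WT saline, a ratio of means of 4.18, and was higher by 1.04 ± 0.06 (limma adjusted p = 8.51e-09) in Sting-/- DOX against WT DOX, a ratio of 2.11. Birc5 rose by 1.74 ± 0.10 (limma adjusted p = 1.85e-08) and was higher by 0.97 ± 0.10 (limma adjusted p = 1.6e-06). Cdc20, the activator of the anaphase-promoting complex, rose by 1.54 ± 0.13 and was higher by 0.78 ± 0.13 (limma adjusted p = 5.64e-07 and 0.000107). These 3 kept both calls under every scaling. Bub1 and Cenpe, a kinetochore kinesin, rose by 0.91 and 0.71 and were higher in Sting-/- DOX by 0.36 and 0.37 (limma adjusted p = 0.00435 and 0.0044), where median-ratio scaling (0.20 and 0.22) and quantile normalization (0.03 and 0.05) removed both calls. Bub1b, the checkpoint partner BubR1, rose by 0.88 and was not called in Sting-/- DOX against WT DOX (0.21 ± 0.10, limma adjusted p = 0.0631). It was called higher under TPM scaling (0.26, limma adjusted p = 0.0264), with only the 2 groups compared in the fit (0.21, limma adjusted p = 0.0487), with no variance trend (0.21, limma adjusted p = 0.0422) and without WT saline replicate 2 (0.21, limma adjusted p = 0.0454). Under quantile normalization it was at -0.11. Cenpf fell by 0.37 ± 0.08 on the log2 scale in WT DOX against WT saline (limma adjusted p = 0.0014) and was at -0.04 ± 0.08 in Sting-/- DOX against WT DOX (limma adjusted p = 0.654), where quantile normalization called it lower (-0.35). Cdc20, Bub1, Bub1b and Cenpe averaged 0.98, 0.283, 0.9 and 0.28 FPKM in WT saline. These 4 passed the filter through the doxorubicin groups, which favoured a rise.

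Spindle assembly was represented by Kif11, the motor that separates the poles, Kif2c, a microtubule depolymerase, and the microtubule-binding proteins Nusap1 and Tpx2. Kif11 had 4.38, 3.6 and 3.85 FPKM in Sting-/- DOX, 2.87, 2.93 and 2.96 FPKM in WT DOX and 0.75, 1.03 and 0.69 FPKM in WT saline, without overlap of the groups. The 4 rose in WT DOX against WT saline by 1.11 (Kif11) to 1.62 (Tpx2), with a highest limma adjusted p of 5.81e-07. Kif11 and Kif2c averaged 0.823 and 0.38 FPKM in WT saline and passed the filter through the doxorubicin groups, which favoured a rise. Called higher over all genes tested were 45.3% in this comparison and 54.1% in Sting-/- DOX against WT DOX. Sting-/- DOX against WT DOX gave higher calls for Kif11 (0.33 ± 0.09, limma adjusted p = 0.00487), Tpx2 (0.44 ± 0.08, limma adjusted p = 0.000177) and Nusap1 (0.46 ± 0.08, limma adjusted p = 0.000275), and Kif2c was not called (0.09 ± 0.10, limma adjusted p = 0.419). Quantile normalization removed the 3 calls (0.03, 0.17 and 0.18 in that order) and median-ratio scaling that on Kif11 (0.14), and Kif2c turned to -0.08 under median-ratio scaling and -0.25 under quantile normalization.

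Cytokinesis genes divide the cell after anaphase: Prc1, Kif20a and Kif23 build the central spindle, Ect2 and Racgap1 switch on RhoA, Anln is the ring scaffold anillin and Cep55 acts in abscission. Prc1 had 9.45, 8.53 and 7.06 FPKM in Sting-/- DOX, 6.46, 6.03 and 6.92 FPKM in WT DOX and 2.25, 2.4 and 1.69 FPKM in WT saline. Anln had 6.19, 5.01 and 5.4 FPKM in Sting-/- DOX, 3.03, 3.91 and 3.23 FPKM in WT DOX and 0.77, 0.8 and 0.59 FPKM in WT saline. Both were apart in all 3 groups, with Sting-/- DOX the highest. Kif20a went against the others of its role, with 4, 3.37 and 3.48 FPKM in Sting-/- DOX, 3.9, 3.68 and 3.63 FPKM in WT DOX and 0.73, 0.8 and 0.77 FPKM in WT saline, so that the doxorubicin groups overlapped. All 7 rose in WT DOX against WT saline, with ratios of means of 3.01 for Kif23 (limma adjusted p = 1.84e-05), 4.39 for Racgap1 (limma adjusted p = 8.47e-08) and 4.87 for Kif20a. Kif20a, Anln, Ect2 and Cep55 averaged 0.767, 0.72, 0.237 and 0.57 FPKM in WT saline. These 4 passed the filter through the doxorubicin groups, which favoured a rise. Called higher over all genes tested were 45.3% in this comparison and 54.1% in Sting-/- DOX against WT DOX.

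Sting-/- DOX exceeded WT DOX for Racgap1 (0.64 ± 0.10, limma adjusted p = 5.16e-05) and Anln (0.57 ± 0.10, limma adjusted p = 0.000164) under every scaling. Kif23 (0.54 ± 0.12, limma adjusted p = 0.00152), Cep55 (0.42 ± 0.14, limma adjusted p = 0.0158), Prc1 (0.32 ± 0.11, limma adjusted p = 0.0169) and Ect2 (0.25 ± 0.10, limma adjusted p = 0.0333) were also called. Cep55 and Ect2 lost the call with a pseudocount of 0.1 FPKM (limma adjusted p = 0.0887 and 0.237). Kif23 lost its call under quantile normalization (0.24) and the other 3 also under median-ratio scaling (0.23, 0.10 and 0.09), with Ect2 at -0.09 under quantile normalization. Without WT DOX replicate 2 the values were 0.36, 0.27 and 0.24 for Cep55, Prc1 and Ect2 (limma adjusted p = 0.058, 0.0607 and 0.0688), without Sting-/- DOX replicate 1 they were 0.30, 0.23 and 0.24 (limma adjusted p = 0.0761, 0.0792 and 0.0666), and Ect2 also lost its call without WT DOX replicate 3 or Sting-/- DOX replicates 2 or 3 (limma adjusted p = 0.104, 0.0585 and 0.0663). Kif20a was at -0.04 ± 0.08 (limma adjusted p = 0.644) and was called lower under median-ratio scaling (-0.23) and quantile normalization (-0.35).

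Mki67 encodes Ki-67, which coats mitotic chromosomes and marks cycling cells. It had 7.4, 7.69 and 7.74 FPKM in Sting-/- DOX, 5.56, 5.42 and 4.7 FPKM in WT DOX and 1.51, 1.68 and 1.56 FPKM in WT saline, with the 3 groups apart. It rose by 1.27 ± 0.07 in WT DOX against WT saline (limma adjusted p = 1.63e-08) and was higher by 0.47 ± 0.07 in Sting-/- DOX against WT DOX (limma adjusted p = 5.38e-05), under every scaling.

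Further genes of the same pathways were listed by role, with earlier results of these data known. Of 51 tested genes of 55 listed for replication, 45 rose and 1 fell in WT DOX against WT saline, with a median log2 fold change of 0.70 over the list. Over all genes tested 45.3% rose and 21.5% fell, with a median of 0.13. Some of the 51, such as Mcm10 (0.337 FPKM) and Clspn (0.297 FPKM), averaged under 1 FPKM in WT saline. These passed the filter through the doxorubicin groups, which favoured a rise. Of the 51, Sting-/- DOX against WT DOX had 18 higher and 11 lower, with a median of 0.06. Both are smaller shares than the 54.1% higher and 29.7% lower of all genes tested, whose median was 0.25. Median-ratio scaling turned the 18 and 11 to 13 higher and 15 lower and quantile normalization to 11 and 24. By log2 fold change of FPKM + 1, which understates low genes, the largest rises with doxorubicin were Uhrf1, which maintains DNA methylation behind the fork (1.73 ± 0.11, limma adjusted p = 5.24e-08), and Gins2 of the active helicase (1.60 ± 0.18, limma adjusted p = 9.46e-06). On the same scale, the largest rises between the doxorubicin groups were Timeless, a fork protection factor (21.6 ± 1.31 FPKM in Sting-/- DOX against 6.34 ± 0.417 in WT DOX, SD, n = 3 each; log2 fold change 1.62), and Pold3 (0.84). The largest falls were those of Gmnn (-1.67) and Pold2 (-0.74). Pold2 and Pold3 are subunits of the same polymerase delta. Gmnn encodes geminin, the inhibitor of Cdt1, and averaged 8.96 ± 1.82 FPKM in Sting-/- DOX, 30.4 ± 2.35 in WT DOX and 37.8 ± 0.821 in WT saline (SD, n = 3 each). Its fall in WT DOX against WT saline (-0.31 ± 0.11, limma adjusted p = 0.0226) lost the call without WT DOX replicate 1 or 2 or WT saline replicate 1 or 2 (-0.29, -0.27, -0.30 and -0.30; limma adjusted p = 0.0555 to 0.0772).

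Of 57 tested genes of 65 listed for mitosis, 53 rose and 2 fell in WT DOX against WT saline, with a median of 0.91 over the list. The shares of all genes tested were 45.3% and 21.5%. Many of the 57, such as Ttk (0.233 FPKM) and Cdc25c (0.153 FPKM), averaged under 1 FPKM in WT saline. They passed the filter through the doxorubicin groups, so the filter favoured a rise. In Sting-/- DOX against WT DOX 39 were higher and 2 lower, with a median of 0.36, against 54.1% and 29.7% of all genes tested. Median-ratio scaling left 27 higher and 5 lower and quantile normalization 15 and 7 in the second of these comparisons. By log2 fold change of FPKM + 1, the largest rises with doxorubicin were Cks2, a Cdk1 subunit (18.2 ± 0.851 FPKM in Sting-/- DOX, 12.2 ± 0.446 in WT DOX and 1.45 ± 0.219 in WT saline; SD, n = 3 each), and Cdca3 (log2 fold change 2.22). Pimreg (1.21) and Cdca8, borealin of the chromosomal passenger complex (0.94), had the largest rises on that scale in Sting-/- DOX against WT DOX. The 2 falls in both comparisons were Pttg1, which encodes securin, at 60.4 ± 7.55 FPKM in Sting-/- DOX, 127 ± 6.08 in WT DOX and 163 ± 4.58 in WT saline, and the cohesin protector Sgo2a, at 1.86 ± 0.227 FPKM in Sting-/- DOX, 2.98 ± 0.113 in WT DOX and 4.12 ± 0.0945 in WT saline (SD, n = 3 each). Promoter windows of these further genes held CHR letters in 69.1% of 55 mitosis genes and 18.2% of 44 replication genes, and E2F letters in 25.5% of the mitosis genes and 52.3% of the replication genes.

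Inhibitors of the cyclin-dependent kinases differed between the same hearts. Cdkn1a, the p21 inhibitor induced by p53, had 73.7, 81.4 and 80.8 FPKM in Sting-/- DOX, 49.05, 58.5 and 53.2 FPKM in WT DOX and 10.6, 13.6 and 11.1 FPKM in WT saline. Cdkn1c, the p57 inhibitor, had 64.2, 66.99 and 69.2 FPKM in Sting-/- DOX, 4.56, 4.48 and 5.58 FPKM in WT DOX and 11.3, 10.9 and 12.03 FPKM in WT saline. Cdkn2b, the p15 inhibitor of Cdk4 and Cdk6, had 9.14, 8.64 and 8.71 FPKM in Sting-/- DOX, 1.05, 0.86 and 0.62 FPKM in WT DOX and 0.2, 0.26 and 0.2 FPKM in WT saline. None of these overlapped between groups: Cdkn1a and Cdkn2b were lowest in WT saline, and Cdkn1c in WT DOX. Cdkn1c fell by 1.09 ± 0.07 on the log2 scale in WT DOX against WT saline (limma adjusted p = 6.81e-08) and was higher by 3.53 ± 0.07 in Sting-/- DOX against WT DOX (limma adjusted p = 6.18e-13), a ratio of means of 13.7. Cdkn2b was higher by 2.42 ± 0.09 (limma adjusted p = 1.75e-10) and Cdkn1a by 0.55 ± 0.09 (limma adjusted p = 8.61e-05) in Sting-/- DOX against WT DOX, while Cdkn1a rose by 2.10 ± 0.09 in WT DOX against WT saline (limma adjusted p = 1.09e-09). Cdkn1b, p27, averaged 37.03 ± 1.3 FPKM in Sting-/- DOX, 19.2 ± 0.806 in WT DOX and 22.1 ± 1.01 in WT saline (SD, n = 3 each; log2 fold change 0.91 in Sting-/- DOX against WT DOX, limma adjusted p = 4.96e-09). These calls held under every scaling. Cdkn2c, also on the list, averaged 19.7 FPKM in Sting-/- DOX, 9.84 in WT DOX and 9.39 in WT saline. Cdkn2d went the other way between the doxorubicin groups. It averaged 14.9 FPKM in Sting-/- DOX, 16.3 in WT DOX and 10.6 in WT saline, with overlapping ranges in the doxorubicin groups. Of the 40 tested genes on this list of inhibitors and other regulators, 23 were higher and 10 lower in Sting-/- DOX against WT DOX, against 54.1% and 29.7% of all genes tested, and 17 and 16 under median-ratio scaling.

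Markers of cell types in the tissue differed between the same groups. Of all genes tested 45.3% rose and 21.5% fell in WT DOX against WT saline, and 54.1% were higher and 29.7% lower in Sting-/- DOX against WT DOX. Of 12 cardiomyocyte markers 10 fell in WT DOX against WT saline and 12 were lower in Sting-/- DOX against WT DOX, with sums of 10580 to 11110 FPKM in Sting-/- DOX, 46570 to 49400 in WT DOX and 72240 to 73080 in WT saline. Fibroblast markers rose for 8 of 10 in WT DOX against WT saline and were higher for 9 of 10 in Sting-/- DOX against WT DOX, with sums of 7789 to 8271 FPKM in Sting-/- DOX, 1223 to 1266 in WT DOX and 588.9 to 599.6 in WT saline. Col1a1, Col3a1, Col1a2 and Postn made up most of the Sting-/- DOX sum. Dcn averaged 850.9 FPKM in Sting-/- DOX, 379.7 in WT DOX and 385.1 in WT saline. Pdgfra averaged 9.09 FPKM in Sting-/- DOX, 9.64 in WT DOX and 5.56 in WT saline. Endothelial markers rose for 1 and fell for 3 of 10 in WT DOX against WT saline and were higher for 10 of 10 in Sting-/- DOX against WT DOX (1335 to 1430 FPKM in Sting-/- DOX, 313.4 to 320.1 in WT DOX and 320.6 to 333 in WT saline). Macrophage and monocyte markers rose for 10 of 10 in WT DOX against WT saline and were higher for 6 and lower for 4 of 10 in Sting-/- DOX against WT DOX, near the shares of all genes tested (2192 to 2277 FPKM in Sting-/- DOX, 1247 to 1360 in WT DOX and 333.8 to 380.0 in WT saline). None of the markers in these 4 lists was at 0 in a library. Their part in the cell cycle results was not tested.

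Further marker lists mostly hold 2 to 6 tested genes, too few to read against the shares of all genes tested. Those shares were 45.3% higher and 21.5% lower in WT DOX against WT saline, and 54.1% and 29.7% in Sting-/- DOX against WT DOX. Neutrophil markers, 6 of 7 analysed here, rose for 6 in WT DOX against WT saline and were lower for 5 in Sting-/- DOX against WT DOX (83.1 to 98.4 FPKM in Sting-/- DOX, 215 to 283 in WT DOX and 6.35 to 7.02 in WT saline; Mmp8 was at 0 in 1 WT saline library). Smooth muscle and pericyte markers rose for 3 and fell for 5 of 10 in WT DOX against WT saline and were higher for 8 and lower for 1 in Sting-/- DOX against WT DOX (988.8 to 1055 FPKM in Sting-/- DOX, 288.3 to 301.3 in WT DOX and 366.0 to 413.0 in WT saline, with 0 markers at 0). Acta2 and Tagln made up most of the Sting-/- DOX sum, averaging 400.8 and 342.3 FPKM there. Abcc9 averaged 9.09 FPKM in Sting-/- DOX, 28.65 in WT DOX and 62.7 in WT saline, and Kcnj8 12.13, 13.29 and 18.17 FPKM. Erythroid markers, of which the globin genes Hbb-bs and Hba-a1 are the most abundant, rose for 1 and fell for 5 of 6 tested in WT DOX against WT saline and were higher for 5 and lower for 1 in Sting-/- DOX against WT DOX (8487 to 9707 FPKM in Sting-/- DOX, 1529 to 1674 in WT DOX and 2479 to 2571 in WT saline). Klf1, the erythroid transcription factor, was at 0 in 1 Sting-/- DOX library and 2 WT DOX libraries, and Slc4a1 in 1 WT DOX and 1 WT saline library. Mesothelial and epicardial markers rose for 1 and fell for 2 of 6 tested in WT DOX against WT saline and were higher for 6 in Sting-/- DOX against WT DOX (95.4 to 99.0 FPKM in Sting-/- DOX, 5.77 to 7.71 in WT DOX and 4.1 to 6.25 in WT saline; Bnc1 was at 0 in 1 WT DOX and 1 WT saline library). Markers of T and natural killer cells, 4 tested, rose for 3 in WT DOX against WT saline and were higher for 1 and lower for 3 in Sting-/- DOX against WT DOX (8.06 to 9.03 FPKM in Sting-/- DOX, 9.51 to 20.6 in WT DOX and 3.69 to 5.19 in WT saline), with Cd3e at 0 in 1 Sting-/- DOX and 1 WT saline library and Ncr1 in 1 Sting-/- DOX library. B cell markers, 2 tested, rose for 2 in WT DOX against WT saline and were higher for 1 in Sting-/- DOX against WT DOX (6.79 to 7.68 FPKM in Sting-/- DOX, 3.9 to 5.04 in WT DOX and 1.56 to 2.63 in WT saline; Ms4a1 was at 0 in 1 WT saline library). Markers of haematopoietic progenitors, 2 tested, rose for 1 in WT DOX against WT saline and were higher for 2 in Sting-/- DOX against WT DOX (194.9 to 199.2 FPKM in Sting-/- DOX, 72.99 to 75.75 in WT DOX and 67.1 to 72.5 in WT saline; Prtn3 was at 0 in 2 WT saline libraries). Cd34 made up most of the progenitor sum, averaging 190.5 FPKM in Sting-/- DOX, 68.9 in WT DOX and 68.3 in WT saline. Of the others, Kit and Flt3 had their higher mean in Sting-/- DOX. Prtn3, not tested, had it in WT DOX (1.39 FPKM against 0.66 in Sting-/- DOX). The part of the cells of all these lists in the cell cycle results was likewise not tested.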

How the data were processed

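Per the labels' protocols, heart RNA was purified with a kit from QIAGEN and prepared for sequencing with an MGIEasy kit. The authors deposited FPKM per gene for each of 9 libraries, and the submitters' processing notes name HISAT2 2.0.4, Bowtie2 2.2.5, RSEM 1.2.12 and the build GRCm39, without saying what each did. FPKM hold no counts, so no count model was used, and the depths given are approximate, since 48.6% to 60.8% of low values fell within 0.1 read of a whole number. Symbols were matched by Entrez ID for 16825 of 16873 genes, and 48 had none.

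Values were tested as log2(FPKM + 1), so that fold changes of low genes are understated, in 1 fit of all 9 libraries with limma 3.58.1 (R 4.3.3; trended prior, 6 residual degrees of freedom, two-sided), adjusted over the 12485 genes averaging 1 FPKM or more. The fit was tested on simulated data. Exact permutation of 3 against 3 libraries gives no p under 0.1 and was not used. Alternatives were another pseudocount, other filters, median-ratio, quantile and TPM scaling (each library rescaled to 1 common sum), only the groups compared, no variance trend, a replicate block and leaving out each library.

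The genes and lists were chosen with earlier results of these data known. Every library's values were given for key genes of each role and for genes moving against their role; of each further list the 2 largest rises and falls past the threshold, by log2 fold change, could be named. Promoter windows are from RefSeq, build GRCm38.p6. Python 3.11.15, numpy 2.4.6, pandas 2.3.3 and matplotlib 3.10.9 were used. Ly6g, Trac, Ighm, Gata1, Mpo, Elane and Ctsg of the marker lists were not analysed here.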

Additional observations from a re-analysis of the deposited data

How the results depend on the processing

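FPKM without counts limit the precision of low genes, and 19 of the 46 genes were under 1 FPKM in WT saline; the fit assumes that libraries vary alike. The cause of the shifts below was not tested. Over the 45 tested of the 46 genes, 2237 values under an alternative kept direction and call, 69 lost and 23 gained a call, and 20 changed sign. The further genes named are not in these counts.

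With a pseudocount of 0.1 FPKM the medians of replication and mitosis genes were 1.52 and 2.10 in WT DOX against WT saline (difference 0.58) and 1.33 and 2.72 in Sting-/- DOX against WT saline (difference 1.39), and the mitosis median was 0.51 in Sting-/- DOX against WT DOX. A mean of at least 5 FPKM, which tests fewer genes, left 17 of the 46 higher and 0 lower in WT DOX against WT saline, 12 and 3 in Sting-/- DOX against WT DOX, and 18 and 0 in Sting-/- DOX against WT saline. In WT DOX against WT saline, median-ratio scaling gave 4676 lower calls over all genes, 2 of the 46 lower, a mitosis median of 1.29 and an all-gene median of -0.052; quantile normalization gave 3461 higher and 5363 lower calls, 2 of the 46 lower, medians of 0.77 and 1.11 for replication and mitosis, and -0.094 for all genes. In Sting-/- DOX against WT DOX, median-ratio scaling gave 16 higher and 11 lower and a mitosis median of 0.21, and quantile normalization 13 and 12 with medians of -0.41 and 0.08. In Sting-/- DOX against WT saline, median-ratio scaling gave 4866 lower calls over all genes, 3 of the 46 lower and medians of 0.76 and 1.48, and quantile normalization 5205, 3, 0.53 and 1.22.

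Changes of sign in Sting-/- DOX against WT DOX under median-ratio scaling were Mcm6 (-0.21), Mcm7 (-0.045), Kif2c (-0.078) and Ccnd2 (-0.015). Under quantile normalization they were Mcm6 (-0.21), Mcm7 (-0.055), Ccnb1 (-0.018), Bub1b (-0.11), Kif2c (-0.25), Ect2 (-0.092) and E2f1 (-0.01), and under TPM scaling Rrm2 (0.021) and Kif20a (0.013). With each library left out, the value of Rrm2, Sting-/- DOX against WT DOX, ranged from -0.119 to 0.055, above 0 without WT DOX replicate 1 (0.012) or Sting-/- DOX replicate 2. That of Mcm6, Sting-/- DOX against WT DOX, ranged from -0.036, without Sting-/- DOX replicate 1, to 0.069. In Sting-/- DOX against WT saline Ccnd2 was at -0.27 (median-ratio scaling) and -0.19 (quantile normalization), and Cdc45 (-0.086) and Ccne1 (-0.11) turned under quantile normalization.

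With each library left out in turn, the mitosis median ranged from 1.33 to 1.41 in WT DOX against WT saline, 0.34 to 0.43 in Sting-/- DOX against WT DOX and 1.73 to 1.81 in Sting-/- DOX against WT saline. The excess of mitosis over replication ranged over 0.26 to 0.39, 0.44 to 0.55 and 0.56 to 0.75. Counts in Sting-/- DOX against WT DOX ranged from 25 to 32 higher and 4 to 6 lower.

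The replicate numbers gave no clear sign of pairing the samples: deviations of same-numbered libraries correlated at -0.032 to 0.104. Those of differently numbered libraries correlated at -0.066 to 0.035, and the labels do not say whether the numbers pair samples. With a replicate block 43 were higher and 1 lower in WT DOX against WT saline, 29 and 6 in Sting-/- DOX against WT DOX (Cdc45 called, limma adjusted p = 0.0467; Ect2 and E2f1 not called, 0.0508 and 0.0672), and 43 and 1 in Sting-/- DOX against WT saline. Over all genes the block gave 5607 higher and 2640 lower, 6749 and 3700, and 7879 and 3225.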

Other observations

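Transcription factors and regulators that were not members also differed between the groups. Myc, an activator of growth and cell cycle genes, averaged 5.66 ± 0.853 FPKM in Sting-/- DOX, 11.2 ± 0.204 in WT DOX and 1.18 ± 0.0819 in WT saline (SD, n = 3 each), and its relative Mycn 7.37 ± 0.564 FPKM in Sting-/- DOX, 1.49 ± 0.305 in WT DOX and 2.3 ± 0.35 in WT saline. Myc was thus highest in WT DOX (log2 fold change -0.88 ± 0.09 in Sting-/- DOX against WT DOX, limma adjusted p = 1.05e-06) and Mycn in Sting-/- DOX (1.75 ± 0.11, limma adjusted p = 1.21e-08). E2f6, a repressor of the E2F family, was lower in Sting-/- DOX than in WT DOX, at -1.46 ± 0.05 (limma adjusted p = 1.21e-10), and Ccng1, the cyclin G1 gene that p53 induces, was at -1.70 ± 0.04 (limma adjusted p = 1.06e-12). Ccng1 averaged 76.9 ± 0.625 FPKM in Sting-/- DOX, 253 ± 3.56 in WT DOX and 380.5 ± 16.2 in WT saline (SD, n = 3 each), whereas Cdkn1a, another gene that p53 induces, was highest in Sting-/- DOX. Cdkn2a, under the filter and so not tested, averaged 2.01 ± 0.252 FPKM in Sting-/- DOX, 0.19 ± 0.165 in WT DOX and 0.147 ± 0.0635 in WT saline (SD, n = 3 each).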
